A study of Mus musculus with 23 samples.

Results

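The genes described here are 39 imprinted genes of the mouse: the cluster around Peg10 on proximal chromosome 6 and genes of other imprinted clusters. They are 39 of the 56941 genes in the count files, and the files hold an identifier for each of them. Peg10 drew attention by its value in the comparison of CRE with RFP libraries of these data, and the other members and the further list below were drawn from general knowledge of imprinting, with earlier results of these data known. The members' values in that comparison are therefore a description: calls from the fit over all genes are counted beside the share of all genes called, with no p printed for a member and nothing read from the counts. P-values are given for comparisons between libraries of one group or between cultures, and for genes outside the list.

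Genomic imprinting is the expression of a gene from only the allele inherited from the mother or only that from the father. The genes sit in clusters, each ruled by a differentially methylated control region, and many clusters pair protein-coding genes expressed from one parental allele with a long noncoding RNA expressed from the other. Imprinted genes are known for roles in growth, placenta and brain. Nedd8 is a small ubiquitin-like protein whose conjugation to cullins activates a large class of ubiquitin ligases. The counts do not tell the parental alleles apart, so the allele named below is background knowledge and not a measurement.

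RNA was measured in primary hippocampal neurons of homozygous Nedd8cKO pups at P0, in which loxP sites flank exons 2 and 3 of Nedd8 in CRE and RFP libraries alike. Neurons received lentivirus encoding RFP as control or CRE with RFP on the first day in vitro, and the labels give 12 days in culture before RNA extraction. The paper's methods and figure legend name a later day, while its results text also gives 12 days for the sequenced neurons. The Synapsin1 promoter of the virus is active in neurons, so glia and other cells of the culture may have kept Nedd8. The sex of the pups was not used, and the line was made in FVB/N zygotes by the study's methods, while its reporting summary names C57BL/6N.

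There were 12 CRE and 11 RFP libraries, and 11 CRE and 10 RFP of them form the count table that the study supplies and are compared here. The first number in a library's label runs from 1 to 3 and is read here as the culture, a reading that no source used here spells out. For 11 RFP and 12 CRE libraries the paper's figure legend gives N = 3, with N defined as animals or biological replicates. Unless stated otherwise, each library was fitted as an independent unit. The p-values therefore measure the spread between libraries, which may in part be technical. They do not measure the spread between 3 biological replicates, and for that question they may be too small. Total counts ran from 7430401 to 13345552 in CRE libraries (n = 11) and from 9833872 to 17112815 in RFP libraries (n = 10). Nedd8 stood at 61.4 ± 10.2 CPM in RFP libraries (SD, n = 10) and at 11.5 ± 3.49 CPM in CRE libraries (SD, n = 11), where CPM is the usual depth-scaled count, computed here with TMM factors for the library sizes. Its log2 fold change was -2.44 (SE 0.17, adjusted p = 6.98e-11 by edgeR's quasi-likelihood test).

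Several libraries stood apart. The share of mitochondrial genes was 0.261% for Nedd8Cre1-3, 1.833% for Nedd8Cre3-3 and 3.435% for Nedd8RFP2-4, while the other 20 libraries ranged from 6.997% to 11.095%. In the same 3 libraries, the level of a gene over its mean in the other libraries also rose with its GC content (Spearman's rho of 0.73, 0.53 and 0.40 across genes, against -0.31 to 0.092 in those 20). Nedd8Cre3-3, with 1546796 counts, and Nedd8RFP3-2, where the ribosomal gene Rn18s-rs5 took 24.2% of the counts, are the libraries left out of the supplied table. The study's methods name Nedd8Cre1-3 in place of Nedd8RFP3-2 as left out, so some of the results that rest on these libraries are also given without them.

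The cell type markers moved with CRE. Summed levels of 8 neuron markers were 6169 to 7362 CPM in RFP and 2622 to 5778 CPM in CRE libraries, and 6 of the 8 were lower in CRE at an adjusted p under 0.05. All 6 markers of dividing cells were lower (147 to 258 CPM summed in RFP, 4.22 to 158 CPM in CRE), as were 5 of 8 markers of the oligodendrocyte lineage (647 to 1867 and 425 to 1910 CPM). Of 8 astrocyte markers 2 were higher and 3 lower (3086 to 6301 and 1408 to 4453 CPM). Of 8 mesenchymal and meningeal markers 2, Pdgfrb and Foxc1, were higher (16.4 to 150 and 90.0 to 439 CPM). Of 6 markers of GABA neurons 1, Slc32a1, was higher (952 to 1886 and 767 to 1720 CPM). Among the lowest lists, Tmem119 was higher and Kdr lower, and markers of microglia, endothelium and choroid plexus summed to at most 27.9 CPM in any library, with Cx3cr1 at 0 in every CRE library and Cldn5 at 0 in every RFP library. The part of these shifts in the members' values was not tested, and in such bulk RNA fewer cells of a type and less RNA per cell cannot be told apart.

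Peg10 and its neighbour Sgce start next to each other on opposite strands. In GRCm39, Peg10 (ENSMUSG00000092035) lies at chr6:4747306-4760517 on the plus strand, and Sgce (ENSMUSG00000004631) at chr6:4672057-4747207 on the minus strand, so that the annotated starts are 99 bases apart and point away from each other.

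Peg10 encodes a gag-pol protein domesticated from a Ty3/gypsy retrotransposon and is expressed from the paternal allele. It had 402 to 834 counts in RFP and 1782 to 4950 counts in CRE libraries. The levels were 34.3, 58.0 and 73.0 CPM in RFP (lowest, median and highest of 10) and 243, 358 and 397 CPM in CRE (of 11). Every CRE library lay above every RFP library, and the lowest CRE value was that of Nedd8Cre1-3. Complete separation upward was found for 2.64% of the 14488 genes tested and downward for 2.08%. Among the 34 tested members, Peg10 was separated upward and none was separated downward.

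The mean level of Peg10 was 55.7 ± 12.9 CPM in RFP and 342 ± 42.4 CPM in CRE libraries (SD). The log2 fold change was 2.60 (SE 0.13), a 6.06-fold difference. With CRE and RFP libraries matched by label number, it was 2.40 (SE 0.25) in culture 1, 2.71 (SE 0.22) in culture 2 and 2.69 (SE 0.26) in culture 3. The difference between cultures was not detected (interaction, p = 0.552, adjusted p = 0.977, edgeR). Of the libraries outside the 21, Nedd8RFP3-2 lay within the RFP range at 72.8 CPM, and Nedd8Cre3-3 at 181 CPM lay between the groups, above every RFP library and below the other CRE libraries.

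**Figure D1:**
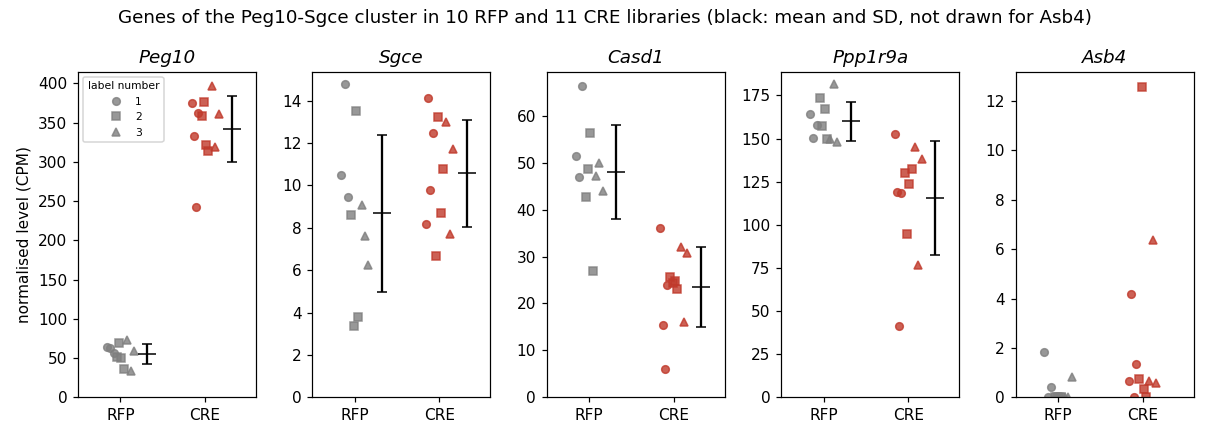
Level of each member of the Peg10-Sgce cluster in CPM (vertical axes, one per gene, from 0) in 10 RFP libraries (grey) and 11 CRE libraries (red). Genes of the region that are not members, such as Pon2, are not drawn. Symbols mark the first number of the label, and black bars give the mean and SD. Peg10 is the gene whose CRE libraries (243 to 397 CPM) all lie above its RFP libraries (34.3 to 73.0 CPM), while Sgce overlaps widely.

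Sgce encodes epsilon-sarcoglycan, a membrane glycoprotein whose loss on the paternal allele is known in human myoclonus-dystonia. Its levels were 3.38, 8.84 and 14.8 CPM in RFP and 6.67, 10.8 and 14.1 CPM in CRE libraries (lowest, median, highest), and no CRE library lay outside the RFP range. The log2 fold change was 0.26 (SE 0.23) and not called. Within single libraries, where scaling cancels, Peg10 had 3.67 to 20.5 counts for each count of Sgce in RFP (median 6.05) and 23.6 to 53.7 in CRE (median 30.5). The ratios did not overlap, the highest RFP ratio being that of Nedd8RFP2-2, which has the lowest Sgce level. As Peg10 was picked by its difference between the groups, this largely follows from the choice and is no further support. Neither gene shares an annotated exon base with another gene. As a description, Peg10 differed between the groups by far more than the gene that starts 99 bases away on the other strand.

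Casd1, a sialic acid O-acetyltransferase whose start lies at -146.6 kb from that of Peg10, went the other way. It stood at 26.9, 47.9 and 66.3 CPM in RFP and at 5.99, 24.3 and 36.2 CPM in CRE libraries, with 8 of 11 CRE libraries under the lowest RFP library. The log2 fold change was -1.05 (SE 0.20). Its lowest level in each group was in Nedd8Cre1-3 and Nedd8RFP2-4, the libraries short of genes with low GC content, and its own exons hold 42.3% GC. Without those and the remaining libraries that stood apart, it was still called lower.

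Ppp1r9a encodes neurabin-1, a scaffold of protein phosphatase 1 at the actin of dendritic spines, and is expressed mainly from the maternal allele in some tissues. It stood at 148, 157 and 182 CPM in RFP and at 41.1, 124 and 152 CPM in CRE libraries, with 10 of 11 CRE libraries below every RFP library and a log2 fold change of -0.49 (SE 0.15). It was not called without culture 2 or without the rep 2 libraries. Those fits also called fewer of all genes, 1311 higher and 803 lower of 14745, and 1654 and 1514 of 14416. The fit of the 21 libraries called 2374 and 1996 of 14488. Asb4, an ankyrin repeat protein of ubiquitin ligase complexes, did not pass the filter on low counts. It stood at 0 to 1.84 CPM in RFP and 0 to 12.5 CPM in CRE libraries, with Nedd8Cre2-2, Nedd8Cre3-2 and Nedd8Cre1-2 above every RFP library. Where it was tested, it had log2 fold changes of 3.01 with DESeq2 and with no filter and was not called, and of 3.07 with counts summed per culture, where it was called higher.

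Of 26 genes in the files with a start within 500 kb of that of Peg10, 6 passed the filter on low counts. Besides the 4 members, these were Col1a2, a fibrillar collagen chain, and Gm44250, a transcript annotated as still to be experimentally checked. Col1a2 starts at -242.5 kb from Peg10 and stood at 9.51 ± 7.79 and 17.7 ± 16.1 CPM (SD; log2 fold change 0.88, SE 0.56, adjusted p = 0.255, edgeR). Gm44250 starts 473.2 kb after Peg10 and stood at 0 to 1.65 CPM in RFP and 0.136 to 9.02 CPM in CRE libraries (log2 fold change 3.54, SE 0.63, adjusted p = 0.00011, edgeR). Among these 6 genes, fold change did not follow distance from Peg10. The nearest start belonged to a gene that was not called, the next on each side were lower and the farthest was higher. Pon2 of the further list below starts outside this window and was higher (1.85, SE 0.23). With so few genes, Peg10 among them, nothing is read about the region.

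**Figure D2:**
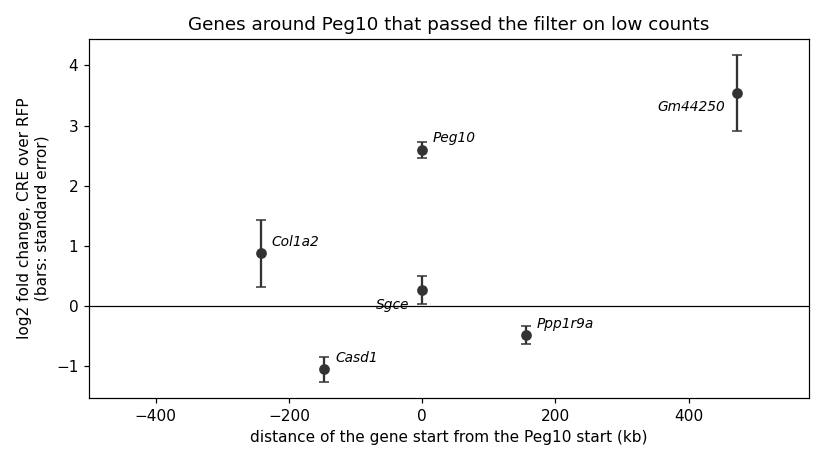
Log2 fold change of CRE over RFP (vertical axis, bars SE) against the distance of each gene's start from that of Peg10 in kb (horizontal axis), for the 6 genes that passed the filter. Peg10 (2.60) and Sgce (0.26) share nearly the same place on the axis, Casd1 (-1.05) and Ppp1r9a (-0.49) lie below 0, and Gm44250 (3.54) lies at the far right.

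Of the 39 members, 34 passed the filter on low counts. At an adjusted p under 0.05, 6 were called higher (Peg10, Mest, Rtl1, Plagl1, Igf2r and Blcap), 6 lower (Casd1, Nnat, Snrpn, Rian, Ppp1r9a and Nap1l5) and 22 were not called. Of all 14488 genes tested, 16.4% were called higher and 13.8% lower. The median log2 fold change was -0.12 over the 34 members and 0.02 over all genes tested, and 14 of the 34 were above 0. As Peg10 was picked by this comparison, nothing is read from these counts. With CRE and RFP libraries matched by label number, the sign of the fold change was shared by all 3 cultures in 17 of the 34. The numbers do not show a pairing of the groups (see the last section), and the share over all genes is not given.

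The members not tested were Asb4, Igf2, Phlda2, Slc22a18 and Ddc. Phlda2 and Slc22a18, which are best known from placenta, had 0 counts in every RFP library and at most 1 count in any CRE library. At 3 counts as the limit of a count of 0, no fold is given for them. Ddc, the decarboxylase of dopamine and serotonin synthesis, reached at most 1.08 CPM. Igf2, a growth factor made in the brain by meninges and vessels, ranged from 0 to 6.53 CPM in RFP and 0 to 11.1 CPM in CRE libraries. Of its exon bases, 58.4% are shared with the gene Gm49394 on the same strand, which had 0 counts. How reads that fall in both were counted is not given in the sources used here, so the level of Igf2 may be understated.

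**Figure D3:**
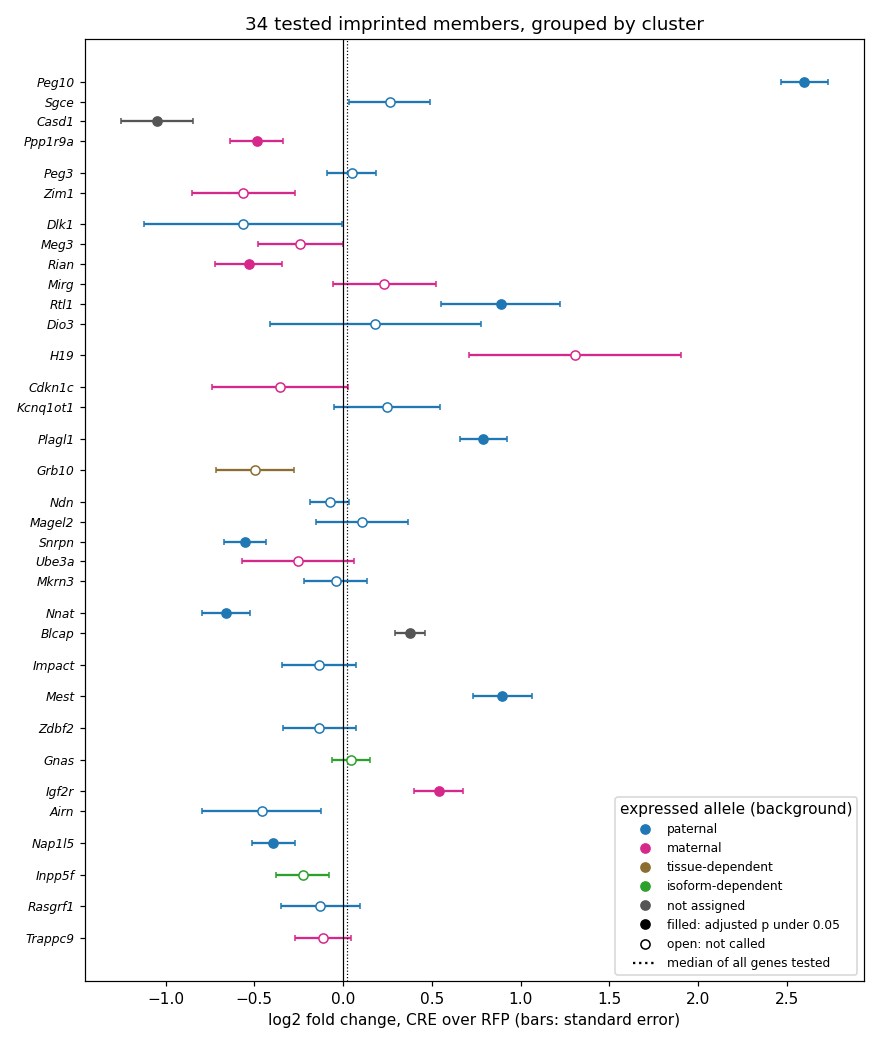
Log2 fold change of CRE over RFP (horizontal axis, bars SE) of the 34 tested members. Rows are grouped by cluster and coloured by the allele assigned from general knowledge. Filled points passed an adjusted p of 0.05, and the dotted line marks the median of all genes tested (0.02). Peg10 at 2.60 stands away from all others, which lie between -1.05 (Casd1) and 1.3 (H19, not called).

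The members are grouped next by the allele assigned to them from general knowledge. Which allele is expressed in these neurons was not measured and can differ between tissues. Of 20 paternally expressed members, 19 were tested, with 4 called higher and 3 lower and a median of -0.04. Of 13 members listed as maternally expressed, 10 were tested, with 1 called higher (Igf2r) and 2 lower (Rian and Ppp1r9a) and a median of -0.25. For Ppp1r9a that holds in some tissues only. Beside the 16.4% of all genes called higher and the 13.8% called lower, and with Peg10 among the paternally expressed members, nothing is read from these counts either. Of the members with no allele assigned here, Blcap was called higher and Casd1 lower. Grb10, whose expressed allele depends on the tissue, and Gnas and Inpp5f, for which it depends on the isoform, were not called.

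Levels can be compared between genes only per length. Per kb of exon in RFP libraries, Nnat was the most abundant member (584 CPM per kb), followed by Nap1l5 (182), Ndn (113), Gnas (107) and Meg3 (73.4). Peg10 was 14th of the 39 at 8.35 CPM per kb, between Ppp1r9a (10.5) and Casd1 (7.43). Its divergent neighbour Sgce was 30th at 0.64 CPM per kb. The length joins the exons of all annotated isoforms (6667 bases for Peg10, 13664 for Sgce). The level of a gene with much exon sequence outside its main transcript is therefore understated, and the order is only a rough guide.

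Rtl1 and Peg10 are both gag-pol genes domesticated from Ty3/gypsy retrotransposons and both expressed from the paternal allele, and both were among the members called higher. Rtl1 stood at 0.62, 3.83 and 9.58 CPM in RFP and at 4.54, 7.32 and 12.99 CPM in CRE libraries, with 4 of 11 CRE libraries above every RFP library (log2 fold change 0.89, SE 0.34). The groups overlapped for most of their range. The call of Rtl1 was lost in 9 of 15 alternatives: over all 23 libraries, with the libraries named in the study's methods, without the libraries that stood apart, without the rep 2 libraries, without any 1 of the cultures, with counts summed per culture and with the rep number as a block. Its log2 fold change was 0.58 to 1.09 over all alternatives.

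The Dlk1-Dio3 cluster on distal chromosome 12 holds Rtl1 and 5 other members. Rian, the maternally expressed host of C/D snoRNAs, stood at 283, 538 and 623 CPM in RFP and at 81.6, 393 and 461 CPM in CRE libraries (log2 fold change -0.53, SE 0.19). The low end of each group was again Nedd8RFP2-4 and Nedd8Cre1-3, and Rian's exons hold 38.5% GC. Rian was not called without culture 2, without culture 3 or without the rep 2 libraries, where fewer of all genes were called too. Without the libraries that stood apart it was called lower (-0.50). Meg3, the long noncoding RNA read from the same strand upstream of Rian, ranged from 606 to 2720 CPM in RFP and from 650 to 2134 CPM in CRE libraries and was not called (-0.24, SE 0.24). Without culture 3 it was called lower (-0.65), and without culture 1 its log2 fold change was 0.08. The median count ratio of Rian to Meg3 was 0.409 in both groups, with 0.214 to 0.818 in RFP and 0.100 to 0.588 in CRE libraries. Mirg, a host of microRNAs (0.23, SE 0.29), Dlk1, a Delta-like membrane protein (-0.56, SE 0.56), and Dio3, which inactivates thyroid hormone (0.18, SE 0.59), were not called.

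Nnat and Blcap lie in one domain of distal chromosome 2 and were called in opposite directions. Nnat, a small proteolipid of the endoplasmic reticulum expressed from the paternal allele, starts within the Blcap gene on the opposite strand (chr2:157401879-157404573 within chr2:157398270-157413194, GRCm39), and the exons of both share 49 bases. Nnat stood at 805, 1245 and 1599 CPM in RFP and at 614, 708 and 1287 CPM in CRE libraries, with 7 of 11 CRE libraries below every RFP library (log2 fold change -0.66, SE 0.14). The highest CRE value was that of Nedd8Cre1-3. Blcap stood at 119, 126 and 148 CPM in RFP and at 147, 164 and 196 CPM in CRE libraries, with 10 of 11 CRE libraries above every RFP library (0.38, SE 0.08). Both lost their call when culture 2 was left out, where fewer of all genes were called too, with the direction kept.

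Mest, an alpha/beta hydrolase family member of proximal chromosome 6, stood at 19.1, 25.9 and 44.9 CPM in RFP and at 36.5, 57.6 and 77.7 CPM in CRE libraries, with 10 of 11 CRE libraries above every RFP library (log2 fold change 0.90, SE 0.17). Of its exon bases, 47.7% are shared with Copg2 on the opposite strand, and the strand setting of the counting is not given in the sources used here. Copg2, a coatomer subunit, stood at 35.2 ± 6.22 and 27.6 ± 9.94 CPM (SD; -0.37, SE 0.22, adjusted p = 0.228, edgeR).

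Plagl1, the zinc finger transcription factor ZAC1, stood at 25.5, 50.3 and 59.1 CPM in RFP and at 57.5, 81.9 and 107 CPM in CRE libraries, with 10 of 11 CRE libraries above every RFP library (0.79, SE 0.13). Igf2r, listed here as maternally expressed, encodes the receptor that clears IGF2. It stood at 31.3, 41.6 and 62.6 CPM in RFP and at 47.5, 59.3 and 88.5 CPM in CRE libraries (0.54, SE 0.14). Its antisense RNA Airn, expressed from the paternal allele, was low (1.23 to 8.23 and 1.09 to 5.74 CPM) and not called (-0.46, SE 0.33). Igf2r was not called without the rep 2 libraries. Plagl1, Mest, Casd1 and Snrpn were called in the same direction under each of 15 alternatives of libraries, tool, scaling, filter, block and GC content. So was Peg10, whose direction is fixed by its choice and is no sign of stability. The alternatives use the same libraries again, and the members were chosen with earlier results known. Agreement between alternatives is therefore no independent support for the other genes either.

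The cluster of Snrpn and Ube3a on central chromosome 7 holds 5 members. Snrpn, which encodes the spliceosomal protein SmN, stood at 110, 168 and 194 CPM in RFP and at 73.4, 111 and 146 CPM in CRE libraries (log2 fold change -0.55, SE 0.12). Of its exon bases, 13.3% are shared with Gm38393 on the same strand. The other paternally expressed members were not called: Ndn (-0.08, SE 0.11) and Magel2 (0.11, SE 0.26) of the MAGE family and the RING ubiquitin ligase Mkrn3 (-0.04, SE 0.18). Ube3a, the maternally expressed HECT ubiquitin ligase of Angelman syndrome, was not called (-0.25, SE 0.32). Its level was 3.13 CPM in Nedd8Cre1-3 and 80.9 to 168 CPM in the other 10 CRE libraries. Its exons, at 35.0% GC, have the lowest GC content of the tested members. Without the libraries that stood apart Ube3a was not called either, with a log2 fold change of -0.22.

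Nap1l5, a paternally expressed gene of the nucleosome assembly family, stood at 262, 329 and 406 CPM in RFP and at 188, 251 and 335 CPM in CRE libraries (log2 fold change -0.39, SE 0.12), and its call was lost with counts summed per culture, without culture 2 and after removal of the trend with GC content. In the Peg3 cluster neither the zinc finger gene Peg3 (0.05, SE 0.14) nor Zim1 (-0.56, SE 0.29) was called, and Zim1 was called lower without culture 3 (-1.002). H19, the long noncoding RNA of the Igf2 cluster, was at 0 to 1.63 CPM in RFP and 0.076 to 3.32 CPM in CRE libraries and not called (1.3, SE 0.60), but called higher without culture 1 (2.36). In the Kcnq1 cluster, the CDK inhibitor gene Cdkn1c (-0.36, SE 0.38) and the antisense RNA Kcnq1ot1 (0.25, SE 0.30) were not called. Grb10, an adaptor of the insulin receptor (-0.50, SE 0.22), was not called either, although 8 of its 11 CRE libraries were below the RFP range, and it was called lower with limma-voom, with the rep number as a block, without culture 3 and without the rep 2 libraries.

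The members left were not called and had small differences. Gnas, the alpha subunit of the stimulatory G protein, differed by 0.04 (SE 0.11), Impact, an inhibitor of GCN2 activation, by -0.14 (SE 0.21), and Zdbf2, a DBF-type zinc finger gene, by -0.13 (SE 0.20). The inositol phosphatase Inpp5f, with 21.7% of its exon bases shared with Mcmbp on the opposite strand, differed by -0.23 (SE 0.15). The exchange factor Rasgrf1 differed by -0.13 (SE 0.22) and the vesicle tether subunit Trappc9 by -0.11 (SE 0.16), all on the log2 scale.

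Differences between cultures did not enter the choice of the members. At an adjusted p under 0.05 with edgeR, 0 of 34 members were called for a difference of the CRE effect between cultures. Of all genes, 0.00690% were called. DESeq2 called 0 members, and 5 of 34 had an unadjusted p under 0.05 with edgeR. No share of all genes is given beside these counts, and nothing is read from them. The smallest p of a member was that of Rasgrf1, with log2 fold changes of -0.73 (SE 0.28), -0.22 (SE 0.26) and 1.00 (SE 0.30) in cultures 1, 2 and 3 (p = 0.00136, adjusted p = 0.757, edgeR). This comparison sets CRE and RFP libraries of the same label number against each other, although the numbers do not show a pairing (see the last section).

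Within the RFP libraries, which carry no CRE, 0 of 35 members were called for a difference between cultures (edgeR). Of 15488 genes tested, 0.542% were called. At an unadjusted p under 0.05 there were 4 members, and DESeq2 called 1, with no share of all genes given beside them. Rasgrf1 was the member nearest the threshold. Its levels were 34.8, 37.6 and 37.3 CPM in culture 1, 32.03, 25.7, 43.6 and 53.6 CPM in culture 2, and 9.08, 17.6 and 19.9 CPM in culture 3, which lay below all others. The adjusted p was 0.0527 with edgeR, and 0.0113 over all RFP libraries, where the added library of culture 3, Nedd8RFP3-2, had 7.72 CPM. Nnat had the next smallest p (p = 0.00179, adjusted p = 0.133, edgeR), with mean levels of 1350, 1309 and 952 CPM in cultures 1, 2 and 3, and without the libraries that stood apart its adjusted p was 0.0147.

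A test of the difference between cultures within the CRE libraries was added after the values were seen. It called 0 of 36 members, against 0% of all genes tested (edgeR). At an unadjusted p under 0.05 there were 8 members, and DESeq2 called 1, with no share of all genes given beside them. Without Nedd8Cre1-3 the edgeR test called 1 member, Meg3, against 0.493% of all genes. Meg3 stood at 2113, 1974 and 2134 CPM in culture 3 and at 650 to 1331 CPM in the other 8 CRE libraries. Its adjusted p was 0.376 with all 11 libraries and 0.00254 without Nedd8Cre1-3 (edgeR). Nedd8Cre3-3, the library of culture 3 outside the 21, had 1190 CPM, within the range of the other cultures, and with all 12 CRE libraries the adjusted p was 0.676. In RFP libraries the mean levels of Meg3 were 1728, 1079 and 1554 CPM in cultures 1, 2 and 3, and no difference was called (adjusted p = 0.803, edgeR).

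A further pattern, noticed in the values and then tested on them, followed the second number of the label, the rep number. In the 3 CRE libraries of rep 2, Dio3 stood at 0.146, 0 and 0 CPM, and in the other 8 CRE libraries of the 21 at 0.954 to 6.43 CPM. Mkrn3 stood at 18.6, 12.0 and 19.5 CPM in those 3 and at 27.8 to 38.5 CPM in the other 8. Both genes were thus lower in the CRE libraries of rep 2 than in all others of the group. Asb4 went the other way, at 4.17, 12.5 and 6.36 CPM against 0 to 1.35 CPM, as did Impact, at 166, 190.5 and 201 CPM against 24.4 to 163 CPM. A test of the rep number called 0 of 36 members within the CRE libraries (edgeR), against 0% of all genes. Of these members 5 had an unadjusted p under 0.05, Dio3, Asb4, Mkrn3, Zdbf2 and Grb10, while Impact had p = 0.100 (edgeR). The share of all genes at an unadjusted p under 0.05 is not given. Within the RFP libraries the test called 0 of 35 (0 at an unadjusted p under 0.05), also against 0%. Without Nedd8Cre1-3 it called Dio3 (adjusted p = 0.0172) and Asb4 (adjusted p = 0.0254, edgeR) within CRE, against 0.589% of all genes, and Mkrn3 and Impact were not called. What the rep number stands for is not given in the sources used here.

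**Figure D4:**
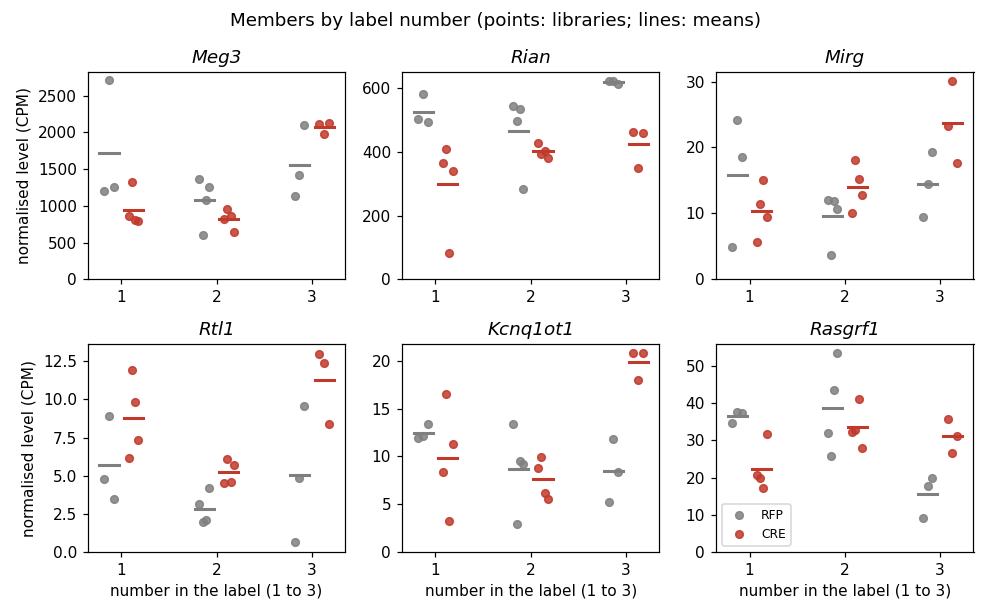
Levels in CPM (vertical axes, from 0) of 6 members by the first number of the label (horizontal axes), with RFP libraries in grey and CRE libraries in red and lines at the means. Meg3 stands at 1974 to 2134 CPM in the CRE libraries of culture 3, above the other CRE libraries, and Rasgrf1 at 9.08 to 19.9 CPM in the RFP libraries of culture 3, below the other RFP libraries.

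The 2 libraries with the fewest mitochondrial counts among the 21 set the ends of the range for many members. Nedd8Cre1-3 was the lowest CRE library for 17 of the 34 tested members and the highest for 4, Ndn, Nnat, Gnas and Trappc9. It was the lowest for 10 of 12 members with exons under 45% GC (median log2 ratio to the other CRE libraries -1.72) and for 1 of 13 members at 50% GC or more (median 0.37). Nedd8RFP2-4 was the lowest RFP library for 10 members and the highest for 5. Across the 34 members, the log2 ratio of the library to the median of its group rose with GC content in both, with a Spearman's rho of 0.66 in Nedd8Cre1-3 and 0.74 in Nedd8RFP2-4. The points of each rho share 1 library. Peg10, at 47.2% GC, was lower than in the other libraries of the group in Nedd8Cre1-3 (243 against 314 to 397 CPM).

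**Figure D5:**
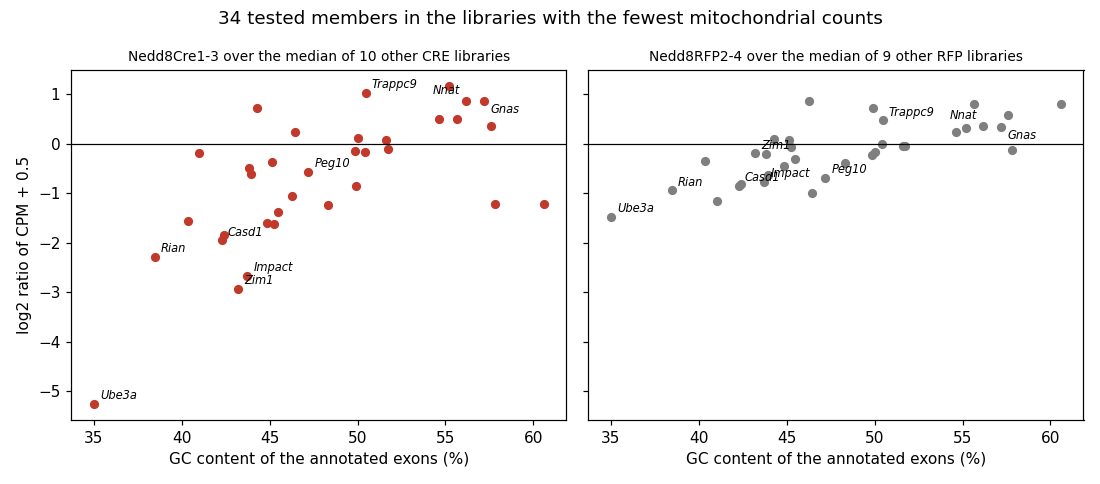
Log2 ratio of the CPM of 1 library (plus 0.5) to the median of the other libraries of its group (vertical axis) against the GC content of the exons in percent (horizontal axis), 1 point per tested member, for Nedd8Cre1-3 (left) and Nedd8RFP2-4 (right). Most members of low GC content lie below 0 in both, down to -5.26 for Ube3a in Nedd8Cre1-3, with Ndn (44.3% GC) an exception at 0.72 and 0.10.

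A further list of 45 imprinted genes, which are not members, was tested in the same comparison. Of these, 41 were found in the files and 27 passed the filter. The list was drawn up with earlier results of these data known, so its calls and p-values are a description. Whether the listed genes are imprinted in these neurons was not measured. In CRE 9 were higher (Ampd3, Pon2, Sfmbt2, Atp10a, H13, Peg13, Tssc4, Cd81 and Ago2) and 4 lower (Mas1, Smoc1, Dhcr7 and Mcts2), with a median log2 fold change of 0.10 over the 27, against 16.4% higher and 13.8% lower among all genes. Pon2, a lactonase gene downstream of Ppp1r9a in the same chromosomal region as Peg10, stood at 26.8 ± 9.32 CPM in RFP and 98.0 ± 36.5 CPM in CRE libraries (SD; log2 fold change 1.85, SE 0.23, adjusted p = 8.72e-07, edgeR). Ampd3, an AMP deaminase gene, had the largest difference of the list (2.21, SE 0.19, adjusted p = 3.92e-09, edgeR), at 5.57 to 14.6 CPM in RFP and 25.6 to 60.1 CPM in CRE libraries. Peg13, the paternally expressed noncoding RNA inside Trappc9, was higher (168 ± 39.2 and 249 ± 29.1 CPM, SD; 0.54, SE 0.11, adjusted p = 0.000683, edgeR), while its host was not called. On the same strand, Peg13 shares 5.5% of the exon bases of Trappc9. Mas1, a receptor gene beside Igf2r, was lower (30.2 ± 12.1 and 10.6 ± 3.35 CPM, SD; -1.53, SE 0.23, adjusted p = 1.56e-05, edgeR).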

How the data were processed

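Reads of the 23 libraries, prepared with a stranded mRNA kit, were demultiplexed with bcl2fastq 2.20.0.422, aligned with STAR 2.7.8a and counted per gene with featureCounts 1.5.0-p1, per the submitters' processing notes, on GRCm39. The authors deposited raw counts per gene for each library, without normalization. The strand setting and the treatment of reads that map to several places are not given in the sources used here. Identifiers were matched to GENCODE M39 of the same build, which named 56323 of 56941. In R 4.3.3, edgeR 4.0.16 was run on the 21 libraries: low genes were dropped by filterByExpr, libraries scaled by TMM, dispersions estimated, and the robust quasi-likelihood fit tested with glmQLFTest. P-values were adjusted by Benjamini and Hochberg's method across every gene in the fit, and a call is an adjusted p under 0.05. Cultures were compared by interaction terms and within groups, and rep numbers within groups. For CPM, TMM scaling rested on 14382 genes kept by filterByExpr with the 23 libraries together. Alternatives used DESeq2 1.42.0 and limma 3.58.1. Figures were drawn with matplotlib 3.10.9 in Python 3.11.15. The scripts were tested on simulated data. Members and gene lists were chosen with earlier results of these data known. All 39 members, Nedd8, called genes of the further imprinted list and filtered genes within 500 kb of Peg10 are named. Parental alleles were not measured, since the counts hold no variants. A trend with GC content and the cell type markers were checked in each library. A sequence around a gene start is not reported here.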

Additional observations from a re-analysis of the deposited data

Results flagged for a closer look

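In the 10 RFP libraries, 8 values of members lay far from the rest of their group, by Dixon's criterion at the 95% level over 37 members with any count; chance marks about 1 in 20 groups. Of these, 3 were in Nedd8RFP2-4, the RFP library with the fewest mitochondrial counts: Rian at 283 CPM (the next lowest library had 493), Ube3a at 56.4 CPM (next 136) and Gnas at 1605 CPM (next highest 1285). Nedd8RFP1-1 held the highest level of Asb4 (1.84 CPM, next 0.807) and of Igf2 (6.53 CPM, next 3.09). Ddc reached 1.08 CPM in Nedd8RFP2-1 (next 0.513), Mkrn3 45.7 CPM in Nedd8RFP2-3 (next 34.3) and Igf2r 62.6 CPM in Nedd8RFP3-3 (next 47.5). Groups of more than 10, such as the 11 CRE libraries, were not examined by this criterion.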

How the results depend on the processing

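At stricter thresholds, a log2 fold change past 1.3 in size with a -log10 adjusted p over 6, 1 member was called higher and 0 lower (edgeR; the 1 is Peg10, which this comparison chose; 6 and 6 at an adjusted p under 0.05), and 2 and 0 of the further imprinted genes. Leaving out each culture in turn gave 4 to 6 members higher and 2 to 8 lower, the fewest lower without culture 2. It gave 6 to 7 further imprinted genes higher and 2 to 4 lower, the fewest again without culture 2. Over all genes, 1311 were called higher and 803 lower of 14745 without culture 2, also the fewest. The calls were 1907 and 1823 of 14379 without culture 1, and 1737 and 1628 of 14767 without culture 3. With all cultures they were 2374 and 1996 of 14488. Members called between cultures within RFP were 1 over all 23 libraries and with DESeq2 (Rasgrf1). They were 2 without Nedd8Cre1-3, Nedd8Cre3-3, Nedd8RFP2-4 and Nedd8RFP3-2 and with no filter on low counts (Rasgrf1 and Nnat). Within CRE, 1 was called without Nedd8Cre1-3 and with DESeq2 (Meg3). Between rep numbers within CRE, 2 were called without Nedd8Cre1-3 (Asb4 and Dio3). Apart from the fits without Nedd8Cre1-3 alone, no share of all genes is given for these settings, and nothing is read from the counts. With the culture number as a replicate block, 6 members were higher and 6 lower, and with the rep number as a block 5 and 7, Rtl1 losing and Grb10 gaining a call; Rtl1 kept its call with the culture block and lost it with counts summed per culture. Dio3, not called, went from 0.18 to -0.39 with the rep number as a block and to -0.94 with limma-voom. Without the rep 2 libraries 4 members were higher and 5 lower, with 1654 of all 14416 genes tested higher and 1514 lower. Deviations of CRE and RFP libraries with the same culture number correlated at 0.027, 0.021 and 0.141, and not every number correlated best with itself, so the numbers do not show a pairing, and those with the same rep number at 0.087, -0.049, -0.098 and -0.225. Of the 12 members called, 5 were called under each of 15 alternatives, among them Peg10, for which this is no sign of stability, and all 12 kept their direction. As the alternatives use the same libraries again, this is no independent support for the other members either. Of members not called, 4 (Zim1, Meg3, H19 and Grb10) were called under some alternative, as was Asb4, untested before, with counts summed per culture. The median ratio of Peg10 to Sgce counts was 6.01 to 6.09 in RFP and 30.5 to 30.7 in CRE over the library sets, an alternative chosen after seeing the data, as were those for Nedd8 (-2.60 to -2.29), for cultures within CRE and for rep numbers. Members under a few CPM (Dlk1, Dio3, H19, Cdkn1c and Airn) have standard errors of 0.33 to 0.60, which limits what could be called.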
